A study of Mus musculus with 18 samples.

Results

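The genes described are those of the muscle acetylcholine receptor and of the machinery that gathers it at the neuromuscular junction: the receptor subunits Chrna1, Chrnb1, Chrnd, Chrng and Chrne, the clustering genes Lrp4, Musk, Dok7 and Rapsn, and the acetylcholinesterase gene Ache. Every probe was taken whose symbol in the platform's probe annotation is one of these, which gave 21 of the 45281 probes and 10 of the 19057 named genes on the array. RNA came from C2C12 myotubes, the fused muscle cells that a mouse myoblast line forms in low serum, and was hybridised to Illumina mouseWG-6 bead arrays. Dex, the synthetic glucocorticoid dexamethasone, was given at 1 uM for 6 h (4 arrays) or 24 h (5 arrays), and ethanol, its solvent, at 0.01% of the medium volume for 6 h (4 arrays) or 24 h (5 arrays). All 4 groups were kept in 2% horse serum. C2C12 is a single line, the labels name no nerve or agrin in the cultures, and they do not tell whether numbered samples of a group were grown separately. P-values therefore reflect how far these samples scatter, and that scatter may be of technical origin.

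The muscle receptor is a cation channel that opens when acetylcholine binds. It is built from alpha, beta and delta subunits together with gamma in fetal or denervated muscle and epsilon in innervated adult muscle. Agrin released by the nerve binds LRP4, which switches on the kinase MuSK with the help of the adaptor Dok-7, and the scaffold protein rapsyn then holds the receptors in clusters under the nerve ending. Acetylcholinesterase breaks the transmitter down. In muscle, subunit genes are driven through E-boxes (CANNTG), which bind myogenic factors such as myogenin, and the epsilon and delta genes also through an N-box (CCGGAA), which binds ETS factors.

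On the assembly GRCm38.p6 the delta gene Chrnd (chr1:87190597-87200070) and the gamma gene Chrng (chr1:87205811-87211835) are neighbours. Chrna1 lies at chr2:73563281-73580338, Rapsn at chr2:91035472-91045729 and Lrp4 at chr2:91457456-91513901. Musk lies at chr4:58285729-58377848, Dok7 at chr5:35056571-35087839 and Ache at chr5:137288247-137294466, and chromosome 11 holds Chrnb1 (chr11:69784036-69795966) and Chrne (chr11:70614883-70619213). Where each probe lies within its transcript was not analysed here.

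RefSeq promoter windows of GRCm38.p6 were at hand for 7 of the 10 genes, and those of Chrnd, Rapsn and Lrp4 were not used here. The stretches shown are those upstream of the 4 receptor subunit genes that had a window. Each runs 5′ to 3′ on the gene's own strand, from 250 to 31 bases before the start used for its window. For Chrnb1 and Chrne that start lies inside the gene extent given above. Capitals mark matches to CANNTG or CCGGAA.
Chrna1, chr2:73580369-73580588, minus strand: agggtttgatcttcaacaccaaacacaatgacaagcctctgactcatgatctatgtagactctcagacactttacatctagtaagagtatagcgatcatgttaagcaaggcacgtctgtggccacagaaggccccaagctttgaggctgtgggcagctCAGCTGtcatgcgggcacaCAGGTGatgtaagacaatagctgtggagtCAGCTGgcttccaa
Chrnb1, chr11:69795968-69796187, minus strand: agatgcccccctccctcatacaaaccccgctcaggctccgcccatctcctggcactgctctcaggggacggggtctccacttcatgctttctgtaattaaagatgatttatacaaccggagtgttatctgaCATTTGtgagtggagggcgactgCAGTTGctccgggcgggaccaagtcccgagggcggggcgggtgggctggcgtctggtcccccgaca
Chrng, chr1:87205561-87205780, plus strand: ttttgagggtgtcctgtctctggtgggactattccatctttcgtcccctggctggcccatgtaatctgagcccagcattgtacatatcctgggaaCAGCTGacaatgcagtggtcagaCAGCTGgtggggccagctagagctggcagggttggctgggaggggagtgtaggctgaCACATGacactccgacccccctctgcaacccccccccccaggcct
Chrne, chr11:70619225-70619444, minus strand: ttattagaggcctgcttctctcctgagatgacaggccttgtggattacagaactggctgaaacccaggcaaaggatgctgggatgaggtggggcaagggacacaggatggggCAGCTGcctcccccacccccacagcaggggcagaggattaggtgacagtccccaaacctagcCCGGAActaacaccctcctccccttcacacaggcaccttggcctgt

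Searched on both strands, CANNTG occurred 3 times in the Chrna1 stretch, 2 times in that of Chrnb1, 3 times in that of Chrng and 1 time in that of Chrne. At least 1 match was present in 62.1% of the 32851 RefSeq stretches of the same length and at least 3 in 9.48%. The narrower CAGCTG, which is itself a CANNTG match, occurred 2 times upstream of Chrna1 and 2 times upstream of Chrng, a number reached by 0.983% of all stretches. Chrne alone among the 4 held CCGGAA, with 1 match, and 9.47% of all stretches held at least 1. The full palindromic glucocorticoid response element had 0 matches in these 4 and was present in 0.00913% of all stretches. These are matches of letters in a short window and say nothing of binding.

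The glucocorticoid target Fkbp5, a chaperone of the steroid receptor, served as a check of the labels. It averaged 4180 ± 229 with Dex and 274 ± 21.0 with ethanol at 6 h (SD, n = 4 each), and 1779 ± 192 with Dex and 168 ± 6.37 with ethanol at 24 h (SD, n = 5 each). Intensities are linear probe brightness as deposited. The median intensity of an array was 99.8 to 100.4 at 6 h but 85.2 to 86.8 at 24 h, so levels are comparable within a time and are given side by side, with no test, across times. Of the 9 myotube-like markers fixed for the check of the cell type 8 were measured, and all 8 were brighter than 1.5 times the array median in every group. All 8 neuron-like and all 3 measured Schwann-like markers were dimmer than that. Fold changes are differences of log2 intensity, Dex minus ethanol, tested with limma over all 45281 probes and called at a Benjamini-Hochberg adjusted p under 0.05.

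At 6 h of Dex, 1 probe each of Lrp4, Chrna1 and Rapsn fell, and no member probe was called higher. At 24 h both Chrnd probes fell, together with the same Lrp4 probe and another Chrna1 probe, and again none was called higher. Thus 3 of 21 member probes were called at 6 h, where 3.04% of all probes were called in either direction, 1.5% lower and 1.54% higher. At 24 h 4 of 21 were called, where 6.28% of all probes were called in either direction, 3.09% lower and 3.18% higher. Dim probes are part of these shares. With only the 22640 probes above the median mean log2 intensity, 1446 were called at 6 h (722 lower) and 2575 at 24 h (1326 lower). Of the 19 member probes among them, 4 were called at each time, all lower. By gene, 3 of 10 had a called probe at 6 h and 3 of 10 at 24 h, beside 5.23% and 11% of all named genes. The median log2 fold change of the 21 probes was -0.07 at 6 h and -0.10 at 24 h, beside medians over all probes of -0.000364 and -0.00202. In bulk RNA, fewer cells expressing a gene and less of its RNA per cell cannot be told apart.

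**Figure D1:**
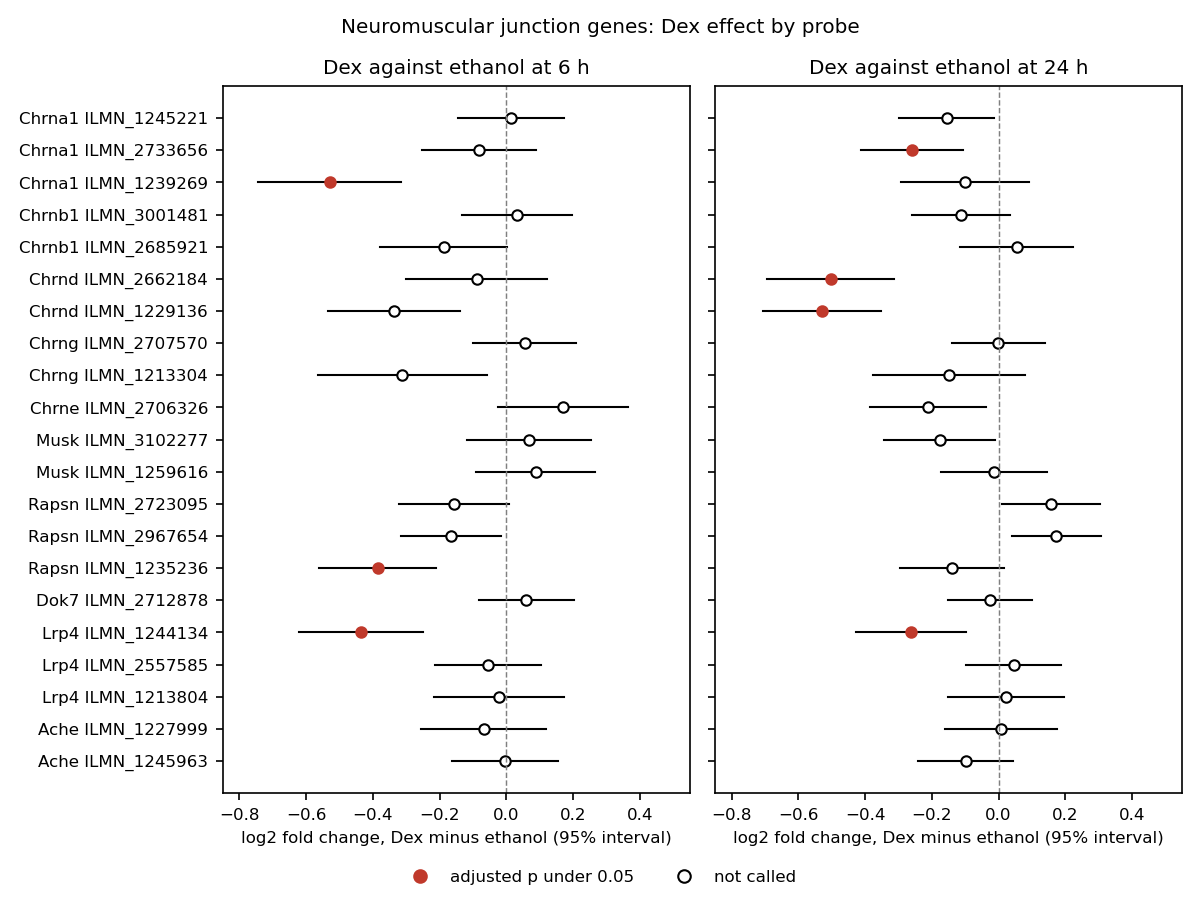
Log2 fold change, Dex minus ethanol, of each of the 21 probes with its 95% interval, at 6 h in the left panel and at 24 h in the right; filled points are called. The 3 probes called at 6 h and the 4 called at 24 h all lie left of 0, and both Chrnd probes stand lowest at 24 h, near -0.5.

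The delta subunit gene had the lowest fold changes of the members at 24 h. Chrnd probe ILMN_2662184 read 660.7, 682.9, 664.9, 709.7 and 670.5 in the Dex arrays, against 983.6, 957.7, 965.2, 880.5 and 1021.9 in the ethanol arrays. The groups did not overlap, and the highest Dex value stayed well under the lowest ethanol value. The log2 fold change was -0.50 (SE 0.092, adjusted p = 0.000815), that is 0.705-fold. The second Chrnd probe, ILMN_1229136, read 393.9, 381.5, 402.2, 401.5 and 407.1 with Dex, against 587.2, 591.4, 555.1, 536.2 and 596.3 with ethanol. These groups were apart as well, with a log2 fold change of -0.53 (SE 0.086, adjusted p = 0.000209), or 0.693-fold. Both probes of Chrnd thus gave nearly the same size of fall. The Dex arrays differed little among themselves, with SDs of 19.7 and 9.99 on means of 678 and 397 for the probes in that order.

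At 6 h Chrnd did not pass the test with either probe. ILMN_2662184 read 1264.5, 930.8, 1297.4 and 1067.8 with Dex and 1231.8, 991.3, 1393.3 and 1224.0 with ethanol, and the groups overlapped throughout their range (log2 fold change -0.09, adjusted p = 0.812). ILMN_1229136 read 567.1, 460.5, 644.4 and 517.7 with Dex and 752.4, 580.5, 752.1 and 673.9 with ethanol. Here the Dex values tended to the low side but overlapped the ethanol values, and the log2 fold change of -0.34 missed the threshold (adjusted p = 0.0562). It passed in 10 of 27 alternative analyses (adjusted p down to 0.00585). Whether the Dex effect differed between the times was tested directly: the 24 h effect minus the 6 h effect was -0.42 for ILMN_2662184 (adjusted p = 0.174) and -0.19 for ILMN_1229136 (adjusted p = 0.582).

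Lrp4, the agrin receptor, was the member gene whose probe fell at both times. ILMN_1244134 read 2748.0, 2938.9, 2641.5 and 2406.8 with Dex at 6 h, against 3548.9, 3977.2, 3081.6 and 3948.1 with ethanol. Every Dex value lay under every ethanol value (log2 fold change -0.44, SE 0.089, adjusted p = 0.00437). The 24 h arrays read 2562.2, 2417.8, 2421.7, 2737.2 and 2369.2 with Dex and 2918.0, 3024.0, 3167.8, 2762.4 and 3142.6 with ethanol. The groups were again apart, though the highest Dex and the lowest ethanol array lay close together (log2 fold change -0.26, SE 0.080, adjusted p = 0.0490). That 24 h call sat just inside the threshold and was lost in 11 of 28 alternatives, among them leaving out ethanol array 1, 2, 3 or 5 or Dex array 1, 2, 3 or 5 (adjusted p up to 0.169). The effects at the 2 times were not shown to differ (difference 0.17, adjusted p = 0.602). The other 2 Lrp4 probes, both annotated to cDNA clones rather than to the RefSeq transcript, were not called at either time. ILMN_2557585 had log2 fold changes of -0.06 at 6 h and 0.05 at 24 h, and ILMN_1213804, whose intensities of 71.9 to 110.2 lay around the array median, of -0.02 and 0.02.

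Chrna1 encodes the subunit that carries most of the transmitter binding site, and its 3 probes, all annotated to 1 transcript, gave different pictures. ILMN_1239269 read 466.1, 426.9, 406.3 and 418.8 with Dex at 6 h, against 505.6, 546.2, 694.7 and 764.6 with ethanol. The groups were apart and the log2 fold change was -0.53 (SE 0.10, adjusted p = 0.00282), the lowest of the 21 at that time. At 24 h the same probe read 119.1 to 141.1 with Dex and 127.4 to 146.6 with ethanol, overlapping, and was not called (log2 fold change -0.10, adjusted p = 0.616). The difference between its effects at the 2 times was 0.43 (adjusted p = 0.164).

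The brighter Chrna1 probe ILMN_2733656 was called at 24 h. It read 15089, 13709, 15220, 15639 and 16086 with Dex, against 18551, 19783, 17739, 17688 and 16855 with ethanol. All Dex arrays were under all ethanol arrays (log2 fold change -0.26, SE 0.074, adjusted p = 0.0363). The call was held in 22 of 27 alternatives and lost, with adjusted p up to 0.158, without ethanol array 1, ethanol array 2 or Dex array 2 at 24 h, without both arrays numbered 1, or with 50 subtracted from each intensity. At 6 h this probe had a log2 fold change of -0.08 (adjusted p = 0.774). The third probe, ILMN_1245221, was among the brightest on the arrays. It averaged 30046 ± 2323 with Dex and 29710 ± 1453 with ethanol at 6 h (SD, n = 4 each), and the log2 fold change was 0.01 (limma adjusted p = 0.971). The 24 h means were 19683 ± 987 with Dex and 21921 ± 1057 with ethanol (SD, n = 5 each), with a log2 fold change of -0.16 (limma adjusted p = 0.209). The part of scanner saturation in these brightest values was not tested.

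Rapsn, the gene of the scaffold that binds the receptor, also had 3 probes on 1 transcript. ILMN_1235236 read 899.2, 872.7, 935.6 and 1035.5 with Dex at 6 h, against 1038.5, 1185.3, 1332.2 and 1351.7 with ethanol. The groups were apart by a narrow margin, and the log2 fold change was -0.39 (SE 0.084, adjusted p = 0.00769). Its 24 h arrays read 564.9, 586.9, 596.5, 598.5 and 594.8 with Dex and 677.5, 656.8, 622.3, 621.5 and 661.6 with ethanol. The groups were apart again, but the log2 fold change of -0.14 was not called (adjusted p = 0.326).

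The other 2 Rapsn probes were not called at either time and took opposite signs at the 2 times. ILMN_2967654 read 1776.5, 1817.7, 1866.4 and 1816.1 with Dex at 6 h and 1954.2, 1902.0, 2097.3 and 2220.7 with ethanol, so that all Dex arrays were lower (log2 fold change -0.17, adjusted p = 0.305). At 24 h it read 1145.4, 1025.3, 1090.2, 1116.9 and 1099.8 with Dex and 943.4, 1001.9, 990.7, 927.4 and 995.7 with ethanol, so that all Dex arrays were higher (log2 fold change 0.17, adjusted p = 0.123). ILMN_2723095 had log2 fold changes of -0.16 (adjusted p = 0.408) at 6 h and 0.16 (adjusted p = 0.219) at 24 h. At 24 h its 5 Dex arrays, from 2651.0 to 2838.4, all lay above its 5 ethanol arrays, from 2432.6 to 2511.8. At 24 h the probes of Rapsn therefore did not share a sign, and no direction for the gene can be given from them.

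**Figure D2:**
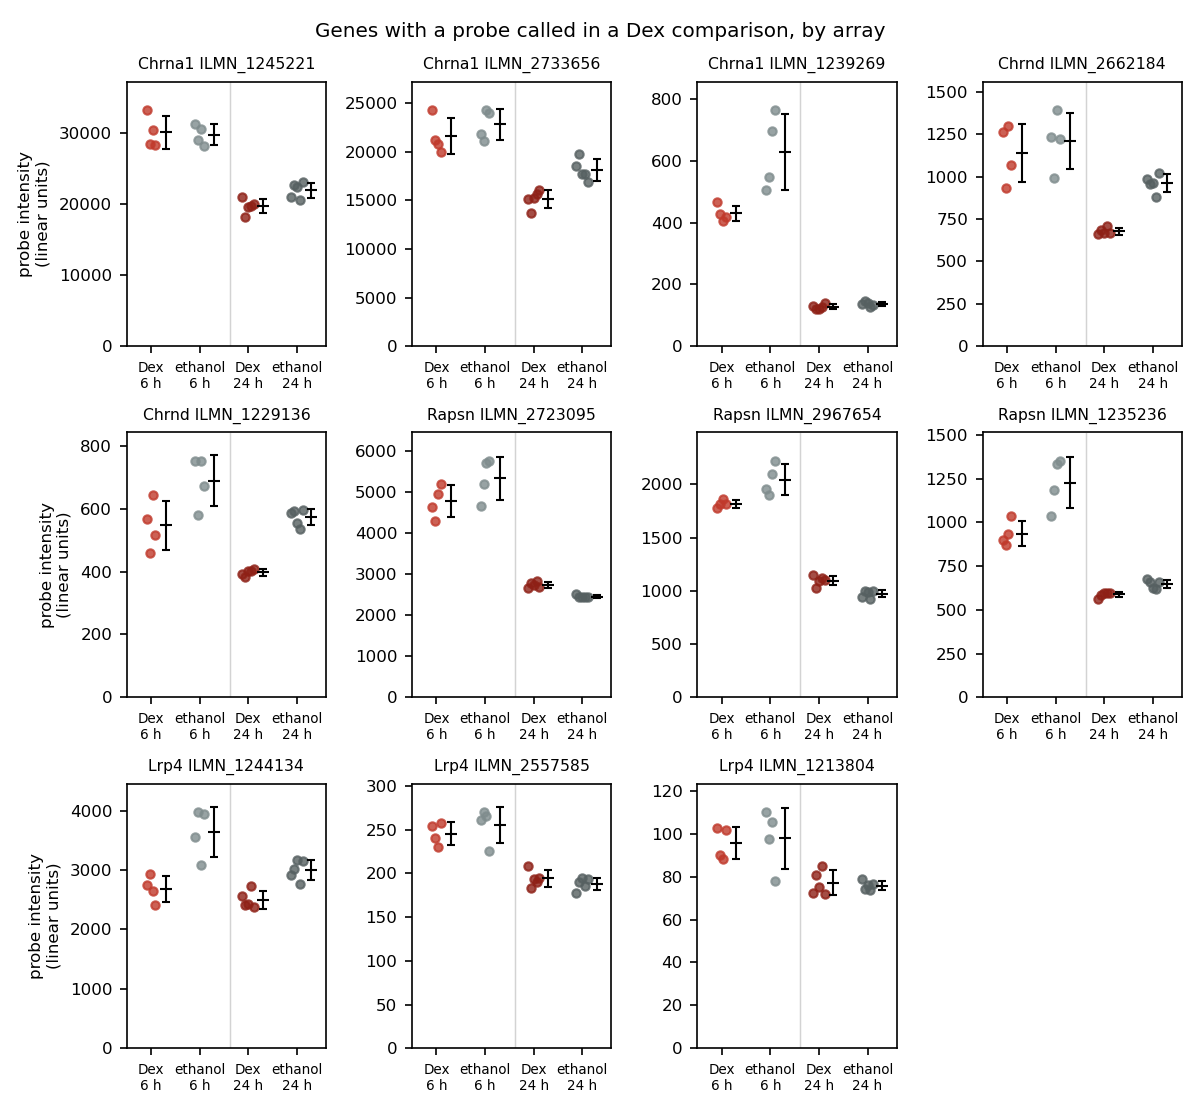
Intensity (linear axis from 0) in every array for each probe of Chrna1, Chrnd, Rapsn and Lrp4, the genes with a called probe, Dex left of ethanol at each time, with the group mean and SD as bars. At 24 h the Dex points of both Chrnd probes lie in a tight group under all ethanol points.

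The gamma and epsilon subunits, which replace each other during development, were not called at either time. The Chrng probe ILMN_2707570 averaged 34316 ± 1221 with Dex and 33028 ± 1452 with ethanol at 6 h (SD, n = 4 each). The 24 h means were 23398 ± 1043 with Dex and 23436 ± 1571 with ethanol (SD, n = 5 each). The groups overlapped at both times, and the 95% interval of the 24 h log2 fold change ran from -0.14 to 0.14, around a value of -0.000737. The part of scanner saturation at this brightness was not tested, so that interval may not bound a change in RNA. The dimmer Chrng probe ILMN_1213304 had log2 fold changes of -0.31 at 6 h (adjusted p = 0.233) and -0.15 at 24 h (adjusted p = 0.514). Its 6 h interval reached from -0.57 to -0.06, so the probes do not bound the gamma effect alike.

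Chrne had 1 probe, ILMN_2706326, which read 195.8, 229.7, 261.2 and 288.4 with Dex at 6 h and 231.3, 222.5, 214.3 and 191.6 with ethanol. The groups overlapped (log2 fold change 0.17, adjusted p = 0.480). At 24 h it read 121.7, 124.3, 128.2, 131.5 and 119.7 with Dex and 148.2, 146.7, 141.1, 148.8 and 139.2 with ethanol. All Dex arrays were under all ethanol arrays there, yet the log2 fold change of -0.21 was not called (SE 0.085, adjusted p = 0.154), and the difference between the times was not called either (-0.38, adjusted p = 0.180). The beta subunit gene Chrnb1 was not called with either probe. ILMN_3001481 had log2 fold changes of 0.03 at 6 h and -0.11 at 24 h, and ILMN_2685921 of -0.19 and 0.05, with adjusted p between 0.390 and 0.928.

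Musk, Dok7 and Ache were not called at either time. The Musk probe ILMN_3102277 averaged 330 ± 34.5 with Dex and 315 ± 29.0 with ethanol at 6 h (SD, n = 4 each), and 169 ± 12.3 with Dex and 191 ± 11.0 with ethanol at 24 h (SD, n = 5 each). Its log2 fold changes were 0.07 and -0.18, the second with an adjusted p of 0.223. The other Musk probe, ILMN_1259616, had log2 fold changes of 0.09 and -0.01. The only Dok7 probe read 116.8 to 128.2 in the Dex arrays and 110.4 to 127.9 in the ethanol arrays over both times. The Ache probes read 66.7 to 134.0 with Dex and 71.4 to 125.3 with ethanol, near the array medians. Since detection p-values were not used here, it is unknown whether Dok7, Ache and the dimmest Lrp4 probe were above background. The same is unknown for Musk ILMN_1259616, with group means of 134 to 142. At 24 h it is also unknown for Chrne (means 125 with Dex, 145 with ethanol) and Chrna1 ILMN_1239269 (128 and 137). The intervals of these fold changes do not bound a change in RNA.

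**Figure D3:**
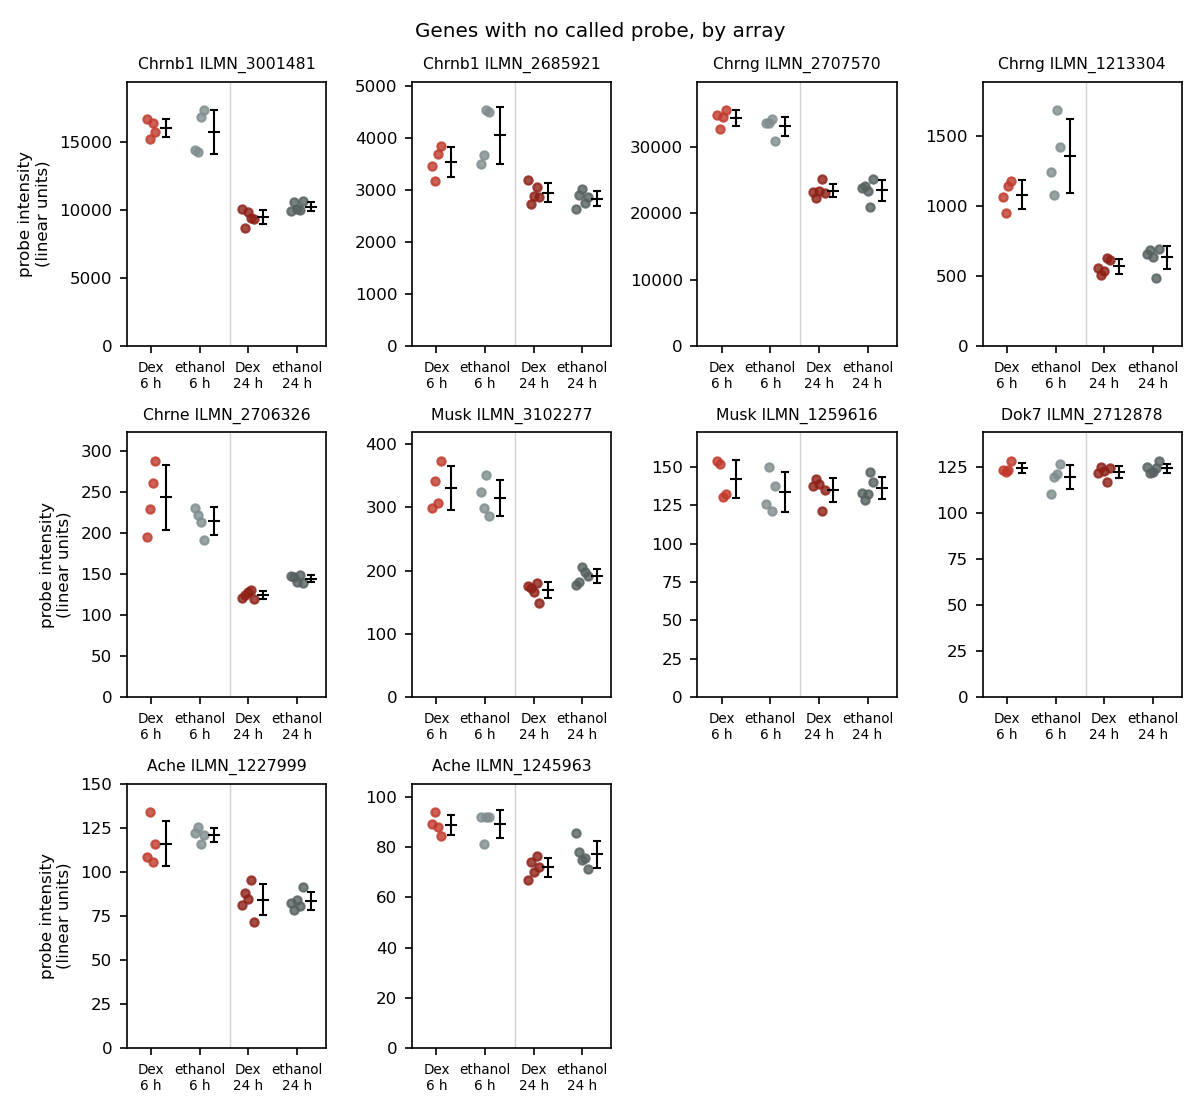
Intensity (linear axis from 0) in every array for each probe of Chrnb1, Chrng, Chrne, Musk, Dok7 and Ache, which had no called probe, Dex left of ethanol at each time, with the group mean and SD as bars. Dex and ethanol points overlap in every panel at both times, except those of Chrne at 24 h, where all Dex points lie under all ethanol points.

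Over the 10 genes, the groups did not overlap for 4 probes at 6 h, all lower with Dex, where 9.24% of all probes had such groups, 4.73% lower and 4.51% higher. At 24 h they did not overlap for 8 probes, 6 lower and 2 higher with Dex, where 13.7% of all probes had such groups, 6.71% lower and 6.99% higher. By call, 1 probe was lower at both times, 2 only passed at 6 h, 3 only passed at 24 h and 15 passed at neither. The Dex effect at 24 h against that at 6 h was called by limma for 0 of the 21 probes, while 6 had an unadjusted p under 0.05, and 0.819% of all probes were called, 0.435% higher and 0.384% lower. By gene that is 0 of 10, where 0.771% of all named genes had a probe called higher, 0.735% one called lower and 1.5% a called probe. The calls of single times therefore do not show that any member responded differently at 6 h and at 24 h. Among Chrna1, Chrnb1, Chrnd, Chrng and Rapsn the dimmest probe of the gene had the lowest 6 h fold change each time, a pattern picked out after the values were seen. It did not hold for Musk, Lrp4 or Ache. The part that probe position, cross-hybridisation or background plays in this was not tested.

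Markers of other cell types were followed beside these results. The summed level of 5 fibroblast-like markers was 10077 to 11553 with Dex and 12405 to 14374 with ethanol at 24 h, and 18887 to 21851 with Dex and 18800 to 22406 with ethanol at 6 h. Of these 5, 1 was called higher at 6 h, and 1 higher and 2 lower at 24 h, and 2 of the 5 stayed under 1.5 times the array median. Pdgfra was higher at both times (0.59 and 0.60), and Dcn (-0.34) and Col1a1 (-0.56) were lower at 24 h, all named after their values were seen. Most of the fibroblast-like sum was Dcn alone, which averaged 9911 with Dex and 12516 with ethanol at 24 h. The summed level of the 8 myotube-like markers was 93036 to 107119 with Dex and 90267 to 108002 with ethanol at 24 h, and 126765 to 133187 with Dex and 126476 to 140806 with ethanol at 6 h. Of these 8, at 24 h 1 was called higher, Ckm (0.30, adjusted p = 0.0425, named after its values were seen), and 1 lower, Myog. That of 5 measured myoblast-like markers was 4308 to 5160 with Dex and 5063 to 5910 with ethanol at 24 h, and 4875 to 7376 with Dex and 5885 to 6955 with ethanol at 6 h, with 0 called higher and 1 lower at 6 h, and 1 higher and 1 lower at 24 h. These were Vcam1, lower at both times (-1.07 and -1.32, adjusted p = 5.58e-08 and 1.1e-10), and Cdk1, higher at 24 h (0.43, adjusted p = 0.00232), both named after their values were seen. The part of these shifts in the results for the members was not tested.

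The genes around the members were read by lists. Of 24 measured genes of agrin, MuSK and neuregulin signalling, 0 were called higher and 1 lower at 6 h, and 1 higher and 1 lower at 24 h. Over all genes, 2.6% had a probe called higher and 2.63% one called lower at 6 h, and 5.5% and 5.5% at 24 h. The gene that fell was Pdzrn3, a ubiquitin ligase that takes MuSK off the cell surface. Its probe ILMN_3156010 averaged 4525 ± 232 with Dex and 6396 ± 401 with ethanol at 6 h (SD, n = 4 each; log2 fold change -0.50, limma adjusted p = 0.000548). At 24 h it averaged 2284 ± 149 with Dex and 3130 ± 297 with ethanol (SD, n = 5 each; log2 fold change -0.45, limma adjusted p = 0.000311). Of its other probes, ILMN_2648937 was called lower at 6 h (-0.68) and not at 24 h (-0.02, adjusted p = 0.944), and ILMN_3077027 was called at neither time. Of the 4 probes of Ctnnb1, the gene of beta-catenin, ILMN_1255869 rose at 24 h (log2 fold change 0.32, adjusted p = 0.0203), while the brightest, ILMN_2994460, had -0.21 and was not called. The brightest probes of this list had median log2 fold changes of -0.03 at 6 h and -0.03 at 24 h, beside 0.00305 and -6.27e-05 over all genes.

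Most calls among the postsynaptic scaffold and synaptic basal lamina genes were increases. Of 21 measured genes 3 were called higher and 0 lower at 6 h, and 7 higher and 1 lower at 24 h, with median log2 fold changes of the brightest probes of 0.08 and 0.05. Dtna, the gene of alpha-dystrobrevin, which steadies receptor clusters in mouse muscle, had the largest of these increases. Its probe ILMN_2724339 averaged 2098 ± 184 with Dex and 707 ± 48.8 with ethanol at 6 h (SD, n = 4 each; log2 fold change 1.57, limma adjusted p = 6.18e-11). At 24 h it averaged 1420 ± 92.1 with Dex and 583 ± 81.1 with ethanol (SD, n = 5 each; log2 fold change 1.29, limma adjusted p = 1.61e-10). Ank3, the gene of the membrane adaptor ankyrin-G, rose at both times by its probe ILMN_1227817 (0.58 and 0.42, adjusted p = 0.000249 and 0.00168), while ILMN_1260394 had -0.09 and -0.18 and was not called. Dtna and Ank3 both have several probes, and their sizes of change differed between probes. Lama5, a laminin chain of the synaptic basal lamina, rose at 24 h (0.48, adjusted p = 0.000127). Of the 3 probes of Dtnb, the beta-dystrobrevin gene, ILMN_2920027 rose at 24 h (0.54, adjusted p = 9.51e-05), while the other 2 had 0.05 and 0.06 and were not called. That probe averaged 131 with Dex and 89.7 with ethanol, where array medians were 85.2 to 86.8. The 24 h calls of Colq (higher, means 90.9 and 76.0) and Lama4 (lower, 83.9 and 99.8) were also on dim probes. Whether these 3 were above background is unknown. The same is unknown at 24 h for Ctnnb1 ILMN_1255869 (means 154 with Dex, 123 with ethanol) and Ank3 ILMN_1227817 (157 and 117). It is also unknown there for the called probes of Etv5 (110 and 137), Gmppb (110 and 142) and Bmp2k (125 and 153), named below.

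Of 20 measured regulators of synaptic genes in muscle, 0 were called higher and 2 lower at 6 h, and 4 higher and 4 lower at 24 h. Runx1, a transcription factor that denervation raises in muscle, fell at both times by its probe ILMN_2589107 (-0.48 and -0.58, adjusted p = 0.00198 and 3.43e-05), while ILMN_2619773 was called lower at 6 h only (-0.33 and -0.19, adjusted p = 0.0384 and 0.177). The probe ILMN_3135323 of Camk2g, a calcium-dependent kinase, fell too (-0.40 and -0.52, adjusted p = 0.0218 and 0.000337), while its brightest probe ILMN_2765196 had 0.01 and -0.23 and was not called. At 6 h that Camk2g call was lost with 50 subtracted and without ethanol array 3, ethanol array 4 or Dex array 2 (adjusted p up to 0.178). Of the 3 probes of Hdac5, a deacetylase, ILMN_2659160 rose at 24 h (0.38, adjusted p = 0.000422), while the brightest, ILMN_3112922, had 0.26 (adjusted p = 0.108) and ILMN_1213290 had 0.17 (adjusted p = 0.153). The probe ILMN_1235329 of the ETS factor gene Etv5 fell then (-0.32, adjusted p = 0.00205), and its other probe had -0.20 and was not called. Myog, the gene of myogenin, an activator of the subunit genes through their E-boxes, fell at 24 h in both of its probes. ILMN_2863674 averaged 4450 ± 600 with Dex and 5540 ± 625 with ethanol at 24 h (SD, n = 5 each; log2 fold change -0.32, limma adjusted p = 0.0380), and ILMN_2621812 had -0.44 (limma adjusted p = 0.0103). The call of ILMN_2863674 was lost in 9 of 28 alternatives, among them leaving out ethanol array 1, 2 or 3 or Dex array 1, 2 or 3 (adjusted p up to 0.153), and at 6 h its log2 fold change was 0.03.

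Of 14 other genes of congenital myasthenic syndromes, 0 were called higher and 1 lower at 6 h, and 1 higher and 1 lower at 24 h. Gfpt1, which feeds protein glycosylation, fell at 6 h by 1 of its probes, ILMN_2437470 (-0.36, adjusted p = 0.0231), a call lost with 50 subtracted from each intensity and without ethanol array 3 or 4 or Dex array 2 or 4 (adjusted p up to 0.260). The probe ILMN_2803334 of Alg2, another glycosylation gene, rose at 24 h (0.29, adjusted p = 0.0123), while the brightest, ILMN_2770492, had 0.10 (adjusted p = 0.607). Gmppb, which makes GDP-mannose, fell then (-0.36, adjusted p = 0.0309), a call lost with 50 subtracted or added and without ethanol array 2 or 4 or Dex array 2 or 5 (adjusted p up to 0.0825). Of 14 genes of receptor assembly and turnover, 1 was called higher and 0 lower at 6 h, and 1 higher and 2 lower at 24 h. Trim63, the ubiquitin ligase MuRF1, rose at both times (0.93 and 0.47, adjusted p = 7.57e-05 and 0.0173), and Rer1, which retains unassembled receptor subunits inside the cell, fell at 24 h by 1 of its probes, ILMN_2935789 (-0.31, adjusted p = 0.0105). The Trim63 call at 24 h was lost in 3 of 28 alternatives, among them leaving out ethanol array 4 (adjusted p up to 0.0667). The second gene called lower was Bmp2k (ILMN_1254526, -0.29, adjusted p = 0.0334), a call lost with 50 subtracted or added and without ethanol array 3 or 4 or Dex array 3 or 4 (adjusted p up to 0.0673). The brightest Bmp2k probe, ILMN_2842060, had -0.11 at 24 h and was not called (adjusted p = 0.445). Of 11 nicotinic subunits outside the muscle receptor 0 were called by limma at either time, while 1 had a probe with an unadjusted p under 0.05 at 6 h and 2 at 24 h.

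**Figure D4:**
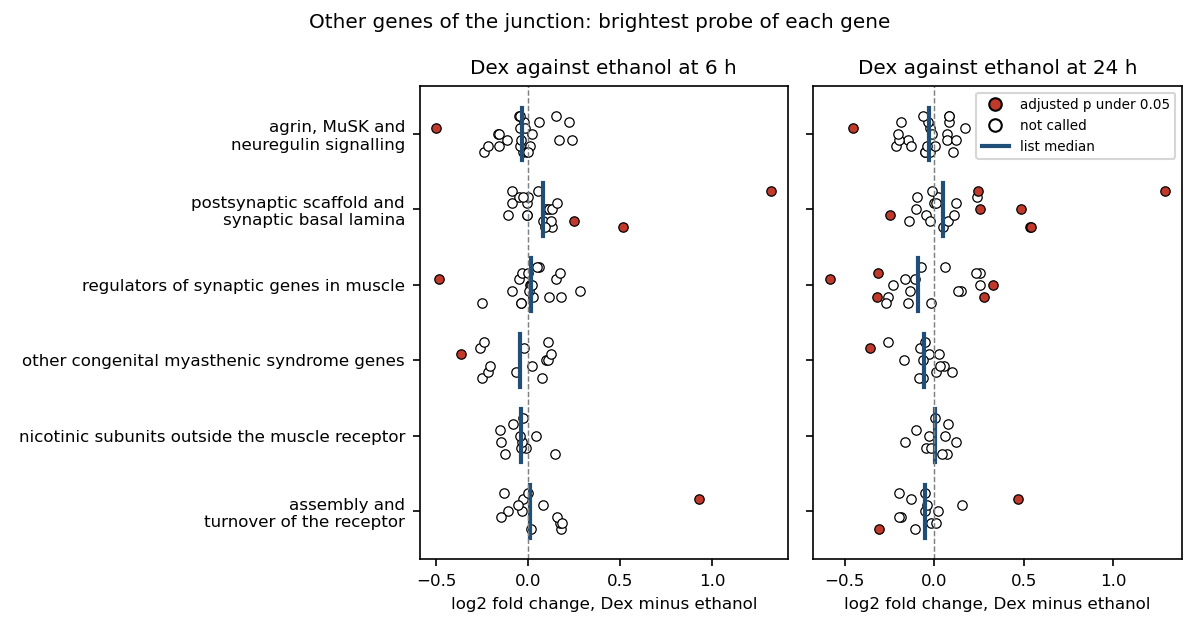
Log2 fold change, Dex minus ethanol, of the brightest probe of each gene in the 6 lists around the members, at 6 h and at 24 h; each point is a gene, filled where its brightest probe was called, and the bar is the list's median. Every list's median lies within 0.1 of 0, and Dtna stands far to the right in the scaffold list.

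Among probes with a mean log2 intensity over 8, those most alike in pattern to a called member were found by Pearson's r over the 18 arrays, each array taken relative to the mean of its time. For Chrnd (ILMN_2662184) they were Eif3c (0.930), Pea15a (0.928) and Trim32 (0.926). For Lrp4 (ILMN_1244134) they were Gstm5 (0.933), Rbm4b (0.907) and Myl12b (0.898). For Rapsn (ILMN_1235236) they were Irgm1 (0.954), Eif5a (0.928) and Plpp1 (0.920), and for Chrna1 (ILMN_2733656) Paip2b (0.909), Iars (0.882) and Lonp1 (0.875). The arrays share their Dex or ethanol groups and the directions that the deposited values lack, so such values are a description only.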

How the data were processed

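Probe intensities of 18 arrays were used as deposited, on a linear scale. The authors pre-processed them with lumi, per the submitters' processing notes; its version is not given in the sources used here, nor are the background correction and normalization. Detection p-values were not used here. The study describes triplicates, yet samples are numbered up to 4 or 5, and all 18 were used.

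Values were taken as log2 intensity with a pseudocount of 0 and fitted with limma 3.58.1 in R 4.3.3, with the 4 groups as terms. The test had been planned for log2 values, while the files held linear ones. Within groups the deposited values lacked 1 of 6 possible directions at 6 h and 3 of 8 at 24 h, each holding under 0.01% of the spread of 1126 bright probes. These entered as covariates, which left 10 residual degrees of freedom in place of 14. P-values were adjusted by Benjamini-Hochberg over 45281 probes, of which 34885 had 1 symbol, 18 several and 10378 none. The number of arrays limits the precision. Intervals are 95%.

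The members and lists were chosen with earlier results of these data known. Every member probe is named. Of each other list, at most 4 genes called in a Dex comparison were named, those with the smallest p, by that probe, and Myog, Fkbp5 and Trim63 always. In addition, Colq and Lama4 of the scaffold list were named as calls on dim probes. Plec and Ncam1 of that list, called with smaller p, were not described. List genes with no matched probe were left out. Deviations of Dex and ethanol arrays of the same number had correlations of -0.109 to 0.170 at 6 h. At 24 h they ran in opposite directions, with correlations of -0.914 to -0.181. Arrays of unlike numbers had -0.456 to 0.478 at 6 h and -0.261 to 0.44 at 24 h. The labels do not say what a shared number means, and the origin of these correlations was not tested. Alternatives were other normalization, offsets, filters, weights, blocks and arrays left out.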

Additional observations from a re-analysis of the deposited data

Results flagged for a closer look

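In 84 groups of 4 or 5 arrays, 2 held an array far from the others, and chance gives about 1 in 20. Rapsn probe ILMN_2723095 read 2511.8 in ethanol array 1 at 24 h, while the other 4 ethanol arrays read 2432.6 to 2446.7. Ache probe ILMN_1245963 read 81.0 in ethanol array 2 at 6 h, while the other 3 read 91.7 to 91.8. For Rapsn probe ILMN_2967654 all Dex arrays were under all ethanol arrays at 6 h and over all of them at 24 h. The Dex effect at 24 h minus that at 6 h was 0.34, and limma's test of this difference did not pass (adjusted p = 0.105).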

How the results depend on the processing

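No called value changed sign under any alternative. Both 24 h calls of Chrnd held in every alternative (28 of 28 for ILMN_2662184 and 27 of 27 for ILMN_1229136). The 6 h calls of Chrna1 (ILMN_1239269), Rapsn (ILMN_1235236) and Lrp4 were lost with 50 subtracted from each intensity (adjusted p = 0.102, 0.171 and 0.135) and held in all others. With 50 subtracted the calls of Pdzrn3 and Runx1 at 6 h and Rer1 at 24 h were lost too (adjusted p = 0.0552, 0.0582 and 0.0701). Of 1150 member values under alternatives, 19 lost and 13 gained a call.

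With 50 subtracted, 456 probes were called at 6 h (290 higher and 166 lower, beside 697 and 681), 0 of them members, 2 members at 24 h and 50 probes for the difference between times. With 50 added, 1 member was called for that difference. Without the missing directions, 2836 probes were called at 6 h, 5726 at 24 h and 1675 for the difference, with 2 members in the last, and Rapsn (ILMN_2967654) was called higher at 24 h (adjusted p = 0.0242). With the brightest probe of each gene, 850 were called at 6 h, 1694 at 24 h and 232 for the difference, with 1 and 2 of 10 members at 6 h and 24 h. Without both arrays numbered 1 at 24 h, 2 members were called at 24 h. The replicate number as a block, whose meaning the labels do not give, gave 2310 probes at 6 h, 4303 at 24 h and 1254 for the difference. Of the members, 5 were called at 6 h and 3 for the difference. With that block, Chrng (ILMN_1213304) at 6 h and Chrne at 24 h were called lower (adjusted p = 0.0416 and 0.0451).

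Leaving out 1 array at a time gave 2 to 4 members at 24 h, the lowest without ethanol array 1, ethanol array 2 or Dex array 2. It gave 323 to 637 probes and 0 to 1 members for the difference between times, the 1 without ethanol array 1 or Dex array 1 at 6 h. Fitting each time alone gives no value for that difference. Signal over background is unknown for the dim probes.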
